A study of Mus musculus with 50 samples.

Results

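The genes described here are 34 mouse genes that build the T cell receptor, pass on its signal, or mark naive, regulatory and activated T cells. They were chosen by symbol, with earlier results of these data known. A probe of the array counted for a gene when its annotated symbol was that gene's. Of the 34 genes, 32 had at least 1 measured probe, and 57 probes in all named them. The whole table held 30750 probes with values and 15312 genes. All 13 receptor genes, 9 of 10 signalling genes, 6 of 7 naive genes and all 4 regulatory and activated genes were measured. The kinase gene Lck and the transcription factor gene Tcf7 had no probe under their names in the annotation and are not analysed here.

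Spleen RNA from female mice was measured on 50 two-colour arrays, 1 array per sample, each against the same universal mouse reference RNA. The mice received CpG oligodeoxynucleotides (ODN), short phosphorothioate DNA that the receptor TLR9 recognises, or control ODN, by intraperitoneal injection. BALB/c mice, titled wild type (WT), were untreated (6 arrays), or were taken 0.5, 1, 3, 9, 24 or 72 h after 400 µg of an equimolar mixture of CpG ODN 1555 and 1466 (4 arrays each), or 3 h after 400 µg of control ODN 1612 and 1471 (4 arrays). C57BL/6 control mice and C57BL/6 mice lacking tumour necrosis factor (TNF-KO) were untreated or were taken 3 h after CpG ODN, with 4 arrays in each of these 4 groups. For C57BL/6 mice no label states how much was injected, and the series text gives its dose without naming a strain. In both genotypes, 1 label field of the CpG arrays reads untreated while the title reads CpG at 3 h, and the arrays were grouped by title. Tnf, the gene deleted in the knockout, bears on this: in C57BL/6 control arrays its log2 ratio to the reference was 0.78, 0.62, 0.78 and 0.58 in the untreated arrays and 4.30, 3.61, 4.59 and 3.16 in those titled CpG. In TNF-KO arrays it was -0.61, -0.09, -0.29 and 0.09 untreated and 0.43, -0.34, -0.44 and -0.30 after CpG ODN. The control arrays titled CpG all lay above the untreated control arrays, and the TNF-KO arrays all lay below them. The Tnf values say nothing of which TNF-KO arrays received CpG ODN.

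The 4 ODN are shown because the contrast between CpG and control ODN rests on a few of their bases. Each CG dinucleotide is in capitals.
CpG ODN 1555: gctagaCGttagCGt
control ODN 1612: gctagatgttagCGt
CpG ODN 1466: tcaaCGttga
control ODN 1471: tcaagcttga
Counted from the 5′ end, control ODN 1612 differs from CpG ODN 1555 by C7T, which leaves it 1 of the 2 CG dinucleotides. Control ODN 1471 differs from CpG ODN 1466 by C5G and G6C and holds no CG dinucleotide.

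T cells recognise peptide on major histocompatibility molecules through a receptor whose chains are held at the surface by the CD3 proteins and aided by the co-receptors CD4 or CD8. Engagement leads the kinases LCK and ZAP70 to phosphorylate CD3 tails and the adaptor LAT, from which signals branch to the exchange factor RASGRP1 and to protein kinase C theta. Resting naive T cells recirculate through spleen and lymph nodes under the control of the egress receptor S1PR1 and the survival receptor IL-7R, and TCF7, LEF1, BCL11B, GATA3 and SATB1 hold their identity. Regulatory and recently activated T cells carry CTLA-4, ICOS and the high-affinity IL-2 receptor chain CD25, with FOXP3 as the factor that defines the regulatory lineage.

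Values below are log2 ratios of spleen over reference RNA, centred on each array's median, so a gene's level has meaning only against the same gene on other arrays and not against another gene. Differences are log2 changes ± SE from limma, with p-values adjusted by the Benjamini-Hochberg method over all genes tested and a threshold of 0.05. The series text states 4 independent experiments per time point. No label names single animals, so p-values measure the spread between these samples. Each array had a value for 27619 to 30590 probes. Of the T cell markers fixed for checking the tissue, Cd3d, Cd3e, Cd3g, Cd247 and Thy1 were measured and Lck was not. In untreated BALB/c spleen the means of the measured markers ran from 0.10 for Thy1 to 4.18 for Cd3d. The submitters' array numbers fell into 11 runs of neighbouring numbers, and what a run stands for is not given. In BALB/c mice the first run held 5 of 6 untreated arrays, all 0.5 h arrays and 1 h replicates 1 and 2; the second held the remaining untreated array, 1 h replicates 3 and 4 and 3 h replicates 3 and 4. The 9 h arrays and the remaining 3 h arrays formed the third run with 3 of 4 arrays of 24 h. The 72 h and control ODN arrays formed another run with no untreated array, so for these 2 groups run and treatment cannot be told apart. In all bulk values below, fewer T cells and less RNA per T cell cannot be told apart.

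In BALB/c spleen the T cell genes stood slightly higher in the first hour and lower at 9 h and 72 h. The mean of the 27 members with a value on every array was 1.29 in untreated spleen, 1.44 at 0.5 h, 1.61 at 1 h, 1.22 at 3 h, 0.91 at 9 h, 1.17 at 24 h and 0.93 at 72 h. The single arrays ran from 1.07 to 1.49 in the untreated group, from 1.37 to 1.95 at 1 h, from 0.76 to 1.13 at 9 h and from 0.78 to 1.09 at 72 h. Arrays of 9 h and untreated arrays overlapped slightly, as did those of 72 h. Over the 32 members, the median log2 change from untreated was 0.15 at 0.5 h, 0.36 at 1 h, -0.14 at 3 h, -0.41 at 9 h, -0.15 at 24 h and -0.46 at 72 h. The medians over all 15264 genes tested stayed between -0.03 and 0.07. These are descriptions, and no test was made over the members as a set.

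**Figure D1:**
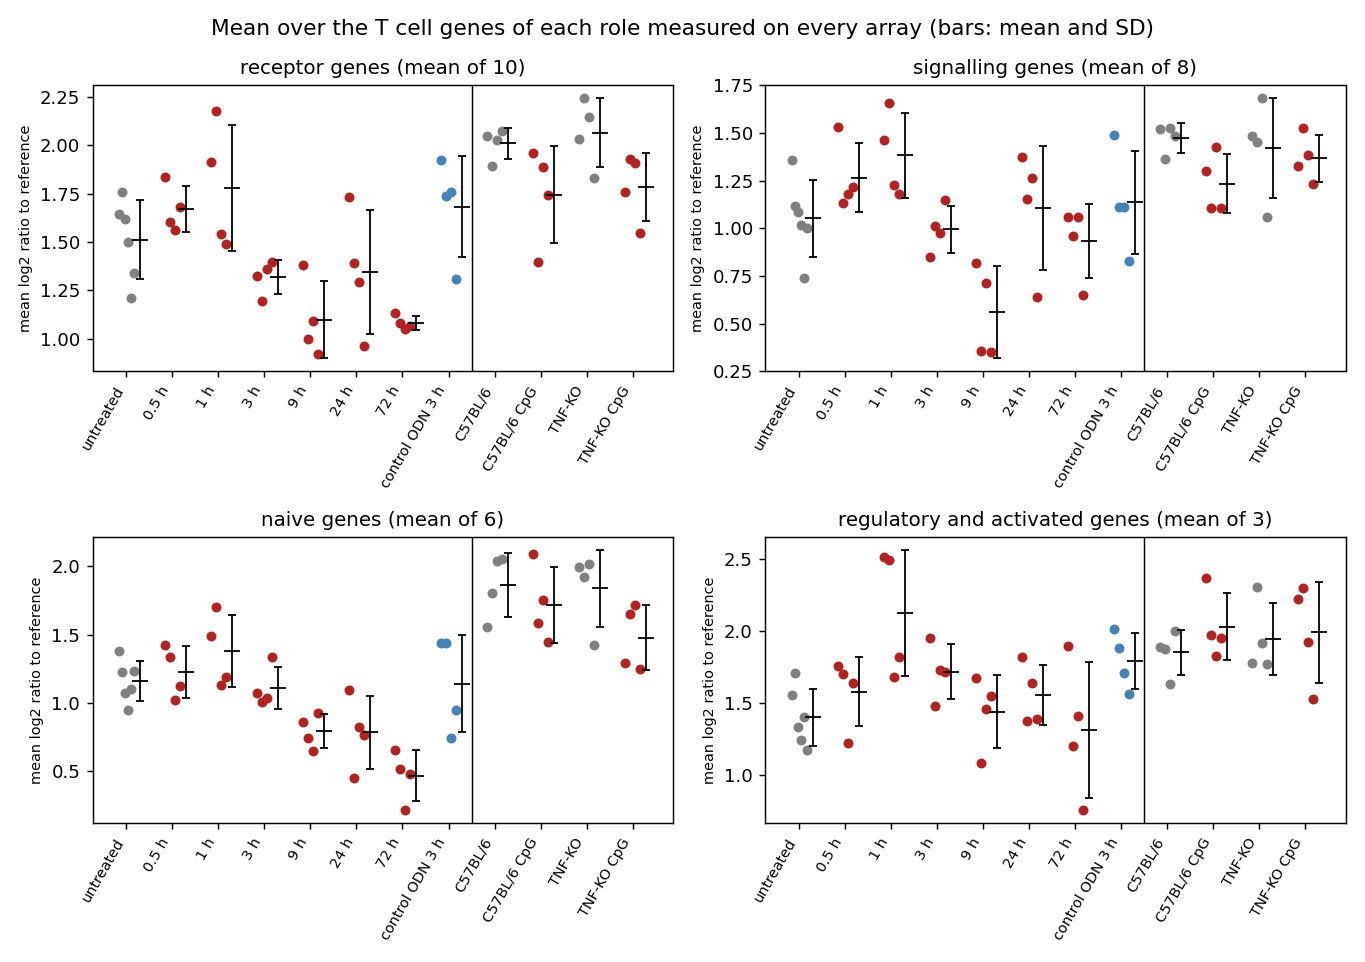
Mean log2 ratio of spleen over reference for the receptor (10 genes), signalling (8), naive (6) and regulatory and activated (3) members with a value on every array, by group. Each point is 1 array and the bar is the group mean and SD; the naive mean was 1.16 in untreated BALB/c spleen and 0.47 at 72 h.

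No member passed the test at 0.5 h, when 0.249% of all genes were called higher and 0.00655% lower, and 5 of 32 members had an unadjusted p under 0.05. At 1 h 1 member, Satb1, was called higher, against 3.01% of all genes higher and 0.288% lower. At 3 h 2 members were higher and 2 lower, where 6.82% of all genes were higher and 3.14% lower. At 9 h 5 members were lower and none higher, with 2.77% of all genes lower and 4.19% higher. At 24 h limma called no member, with 6.83% of all genes higher and 1.62% lower, and 10 members had an unadjusted p under 0.05. At 72 h 10 members were lower and 1 was higher, with 4.15% of all genes lower and 6.43% higher. The members' share of lower calls, 5 of 32 at 9 h and 10 of 32 at 72 h, was above the background share at both times. The members were chosen with earlier results of these data known, so this comparison of shares is a description. With the array run as a fixed block, 0 members were called at 9 h, and the 72 h comparison could not be fitted. Of the 10 members lower at 72 h, 4 were also among the 5 lower at 9 h, and these were Cd3g, Cd28, Thy1 and Rasgrp1. The 2 lists share their untreated arrays.

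**Figure D2:**
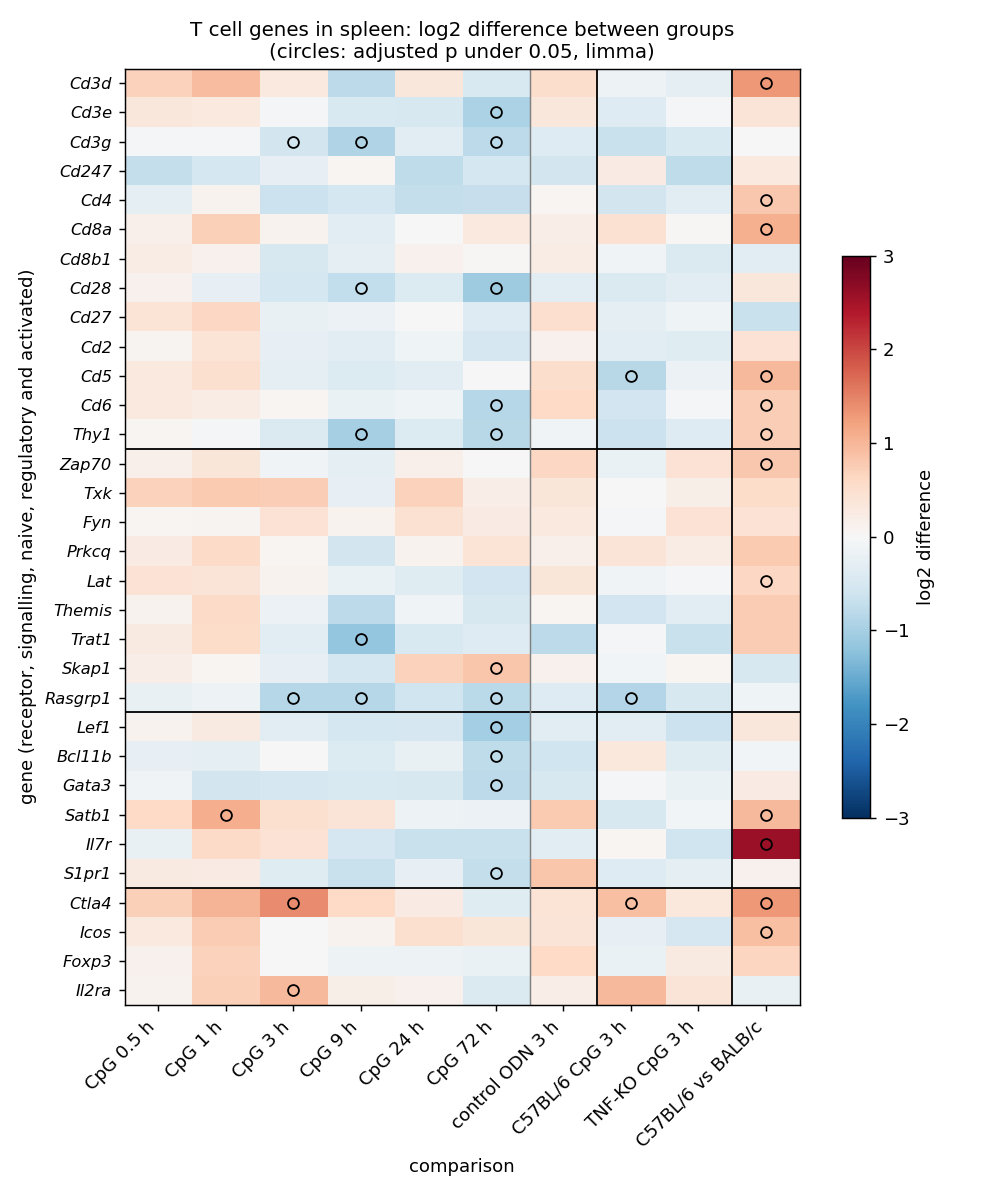
Log2 change of each of the 32 measured members, with members in rows by role and comparisons in columns. The columns are each time after CpG ODN and control ODN against untreated BALB/c spleen, and CpG ODN at 3 h against untreated in C57BL/6 control and in TNF-KO mice. The last column is untreated C57BL/6 control against untreated BALB/c spleen, and the other comparisons are not drawn. A circle marks an adjusted p under 0.05 by limma. Most calls of lower members lie in the 9 h and 72 h columns, with 5 and 10. Most calls of higher members lie in the comparison of untreated C57BL/6 with untreated BALB/c spleen, with 12. Uncalled lower and higher values lie in the other columns too.

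Among the CD3 genes, Cd3g, which encodes the gamma chain of the complex, was lower at 3, 9 and 72 h. The untreated arrays lay between 2.26 and 3.15 with a median of 2.45. The 3 h arrays read 1.80, 1.67, 2.18 and 2.56, the 9 h arrays 1.80, 1.16, 2.03 and 1.78, and the 72 h arrays 1.85, 1.64, 1.90 and 1.88. All 9 h and 72 h arrays lay below every untreated array, whereas 3 h replicate 4 lay among them. Cd3g changed by -0.55 ± 0.18 at 3 h (adjusted p = 0.0479, limma), -0.90 ± 0.18 at 9 h (adjusted p = 0.000798) and -0.78 ± 0.18 at 72 h (adjusted p = 0.00584). At 24 h its arrays read 2.49, 1.87, 2.37 and 2.29, and the gene was not called. The 3 h call was lost when 3 h replicate 1, 2 or 3 or untreated replicate 1, 2 or 3 was left out, with an adjusted p of up to 0.228.

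Cd3e, the epsilon chain that pairs with the gamma and delta chains, was called at 72 h alone in the main fit. Its untreated arrays lay between 0.82 and 1.55 with a median of 1.04, and the 72 h arrays read 0.28, 0.26, -0.04 and 0.18. The groups did not overlap. Cd3e fell by 0.94 on the log2 scale (SE 0.16, adjusted p = 0.000286, limma), 1.92-fold. At 9 h it read 0.89, 0.55, 0.57 and 0.58, a change that did not pass the test. With arrays scaled to the same spread Cd3e was called lower at 9 h (-0.51, adjusted p = 0.0411, limma). The same setting called it lower at 24 h (-0.55, adjusted p = 0.0246). Cd3d, the delta chain, varied widely among untreated arrays, from 3.29 to 4.93. In the main fit it was called against untreated BALB/c spleen at no time. With replicate number as a block Cd3d was called lower at 9 h (-1.18, adjusted p = 0.00499, limma) and 72 h (-0.86, adjusted p = 0.0497). It read 3.93, 2.94, 3.14 and 3.63 at 9 h and 4.84, 4.17, 5.07 and 4.04 at 24 h, and every 24 h array exceeded every 9 h array. From 9 h to 24 h Cd3d rose by 1.12 ± 0.34 (adjusted p = 0.0403, limma), where 4.88% of all genes were called higher and 2.05% lower. This call was lost without 24 h replicate 1, 2 or 3 or 9 h replicate 2, 3 or 4, with an adjusted p of up to 0.181. With the run as a fixed block the change was 1.02 (adjusted p = 0.101, limma) and with arrays scaled to the same spread 0.97 (adjusted p = 0.0878), and neither passed. Cd247, the zeta chain that carries most of the signalling motifs, ranged from -0.10 to 2.04 in the untreated arrays and was called in no comparison.

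Cd3g, Cd3d and Cd3e are neighbours on chromosome 9, and the annotated starts of Cd3g and Cd3d lie 1355 bases apart on opposite strands. Their promoters are shown because these 3 genes of 1 locus differed in the times at which the main fit called them. These times changed with the setting, and no difference between the 3 genes was tested. Each is the 250 bases before the annotated start from RefSeq (GRCm38.p6), 5′ to 3′ on the gene's strand, with matches to any of 5 motifs in capitals. Motifs were named after factor families and searched on both strands. The GATA motif was AGATAA, the one for RUNX was TGTGGT, that for TCF/LEF was CTTTGA, and that for ETS was AGGAAG. The NF-kB motif was a common core of 10 letters with 3 free positions, and no match overlaps another in the sequences shown.
Cd3g promoter, chr9:44980432-44980681, minus strand: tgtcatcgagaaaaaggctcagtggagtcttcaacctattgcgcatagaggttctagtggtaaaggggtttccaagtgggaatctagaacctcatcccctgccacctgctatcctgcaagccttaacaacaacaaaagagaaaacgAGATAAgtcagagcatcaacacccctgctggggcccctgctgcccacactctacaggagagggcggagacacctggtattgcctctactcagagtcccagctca
Cd3d promoter, chr9:44981536-44981785, plus strand: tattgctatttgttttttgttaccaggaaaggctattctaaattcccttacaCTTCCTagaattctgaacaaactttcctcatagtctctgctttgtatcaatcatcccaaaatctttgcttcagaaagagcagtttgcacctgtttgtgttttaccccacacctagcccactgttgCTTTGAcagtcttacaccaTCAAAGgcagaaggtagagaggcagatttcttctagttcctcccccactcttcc
Cd3e promoter, chr9:45009612-45009861, minus strand: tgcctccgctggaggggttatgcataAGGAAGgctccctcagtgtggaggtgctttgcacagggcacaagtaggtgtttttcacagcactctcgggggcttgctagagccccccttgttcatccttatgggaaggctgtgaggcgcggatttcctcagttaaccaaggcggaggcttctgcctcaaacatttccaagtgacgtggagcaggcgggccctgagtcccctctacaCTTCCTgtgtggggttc
The Cd3g window holds 1 GATA match, 104 bases before the start at its first base. The Cd3d window holds 2 TCF/LEF matches and 1 ETS match, and the Cd3e window 2 ETS matches. These letters are common: of 32817 windows of the same length in the table, 9.99% hold the GATA motif, 13.8% the TCF/LEF motif, 14.0% the RUNX motif, 29.5% the ETS motif and 4.95% the NF-kB motif. Of the 25 members that matched a window by symbol, 3 hold the GATA motif, 7 the TCF/LEF motif, 4 the RUNX motif, 15 the ETS motif and 2 the NF-kB motif. A member counted here when any of its windows matched, whereas the shares above are of single windows. Counted by window, 39 windows of these members hold 3 with the GATA motif, 7 with TCF/LEF, 4 with RUNX, 17 with ETS and 2 with NF-kB. A match describes the sequence and is not evidence of a site in use.

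The co-receptor genes were called in none of the BALB/c comparisons with untreated spleen. Cd4, which defines helper T cells, read between 2.04 and 2.88 in untreated arrays and 2.20, 1.52, 1.86 and 1.92 at 3 h, a change of -0.65 that did not pass the test (adjusted p = 0.095, limma). Cd8a, the alpha chain of the co-receptor of cytotoxic T cells, differed between the array runs at 1 h, with 3.63 and 3.50 in the first run and 1.82 and 1.95 in the second, against 1.60 to 2.40 in untreated spleen. Replicates 1 and 2 lay above every untreated array and replicates 3 and 4 among them. Cd8b1, the beta chain, stayed between -0.88 and 0.60 on every array of the CpG groups from 1 h to 72 h.

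Among co-stimulatory and adhesion receptors, Cd28, the main co-stimulatory receptor of naive T cells, and Thy1, a surface protein found on nearly all mouse T cells, were lower at 9 h and 72 h. Cd28 lay between 1.06 and 1.54 in untreated arrays, with a median of 1.25. It read 0.76, 0.27, 0.55 and 0.57 at 9 h and 0.33, 0.35, -0.50 and 0.62 at 72 h. Every array of either time lay below every untreated array. Cd28 changed by -0.74 ± 0.18 at 9 h (adjusted p = 0.00844, limma) and by -1.07 ± 0.18 at 72 h (adjusted p = 0.000225). Its other probe gave -0.86 at 9 h (adjusted p = 0.0134 over all probes).

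Thy1 lay between -0.20 and 0.24 in untreated arrays, with a median of 0.13, and read -0.81, -1.03, -0.65 and -1.06 at 9 h. No 9 h array overlapped the untreated arrays. At 24 h it read -0.12, -0.38, -0.50 and -0.25, and at 72 h -0.66, -0.55, -1.58 and -0.09. At 72 h replicate 4 lay within the untreated range. Thy1 changed by -0.99 ± 0.17 at 9 h (adjusted p = 0.000142, limma) and by -0.82 ± 0.17 at 72 h (adjusted p = 0.00247). The second Thy1 probe did not follow at 9 h, with a change of -0.01 (adjusted p = 0.994 over all probes), so the 9 h fall of Thy1 rests on 1 of its 2 probes. The 72 h call held with probes averaged.

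Cd6, a scavenger-type receptor that binds CD166, was called lower at 72 h. It read 0.78, 0.90, 0.79 and 1.16 there against 1.47 to 2.24 in untreated arrays, with no overlap and a change of -0.86 ± 0.18 (adjusted p = 0.00235, limma). Of its other 2 probes, 1 changed by -0.59 (adjusted p = 0.0379 over all probes) and the other by 0.10. From 24 h, when its arrays read 1.83, 1.79, 1.69 and 1.26, to 72 h Cd6 fell by 0.73 on the log2 scale (SE 0.20, adjusted p = 0.0309). In that step 1.07% of all genes were called lower and 2.26% higher. That step was lost without replicate 1, 2 or 3 of either time, with an adjusted p of up to 0.0976. Cd2, Cd5 and Cd27, receptors of adhesion, inhibition and co-stimulation in that order, were called against untreated BALB/c spleen at no time.

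Cd2 and Cd5 were lower at 3 h than at 1 h. Cd2 read 1.92, 2.10, 1.28 and 1.24 at 1 h and 1.15, 0.95, 0.90 and 1.00 at 3 h. Cd5 read 1.65, 1.95, 1.42 and 0.97 at 1 h and 0.66, 0.73, 0.65 and 0.89 at 3 h. In both genes every 3 h array lay below every 1 h array. Between these times Cd2 changed by -0.64 (adjusted p = 0.0363, limma), Cd5 by -0.76 (adjusted p = 0.0113) and Rasgrp1 by -0.71 (adjusted p = 0.0292), the 3 members called of 32, where 6.01% of all genes were called lower and 4.08% higher. With the array run as a fixed block none of the 3 passed. No member was called between 0.5 h and 1 h (0.642% of all genes higher, 0.0524% lower, 3 members at an unadjusted p under 0.05) or between 3 h and 9 h (0.183% higher, 0.812% lower, 6 members). The Cd2 call was lost without 1 h replicate 1 or 2 or 3 h replicate 2, 3 or 4 (adjusted p up to 0.169), the Cd5 call without 1 h replicate 2 (adjusted p = 0.0708), and the Rasgrp1 call without 1 h replicate 1 or 2 or 3 h replicate 2 or 3 (adjusted p up to 0.16).

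**Figure D3:**
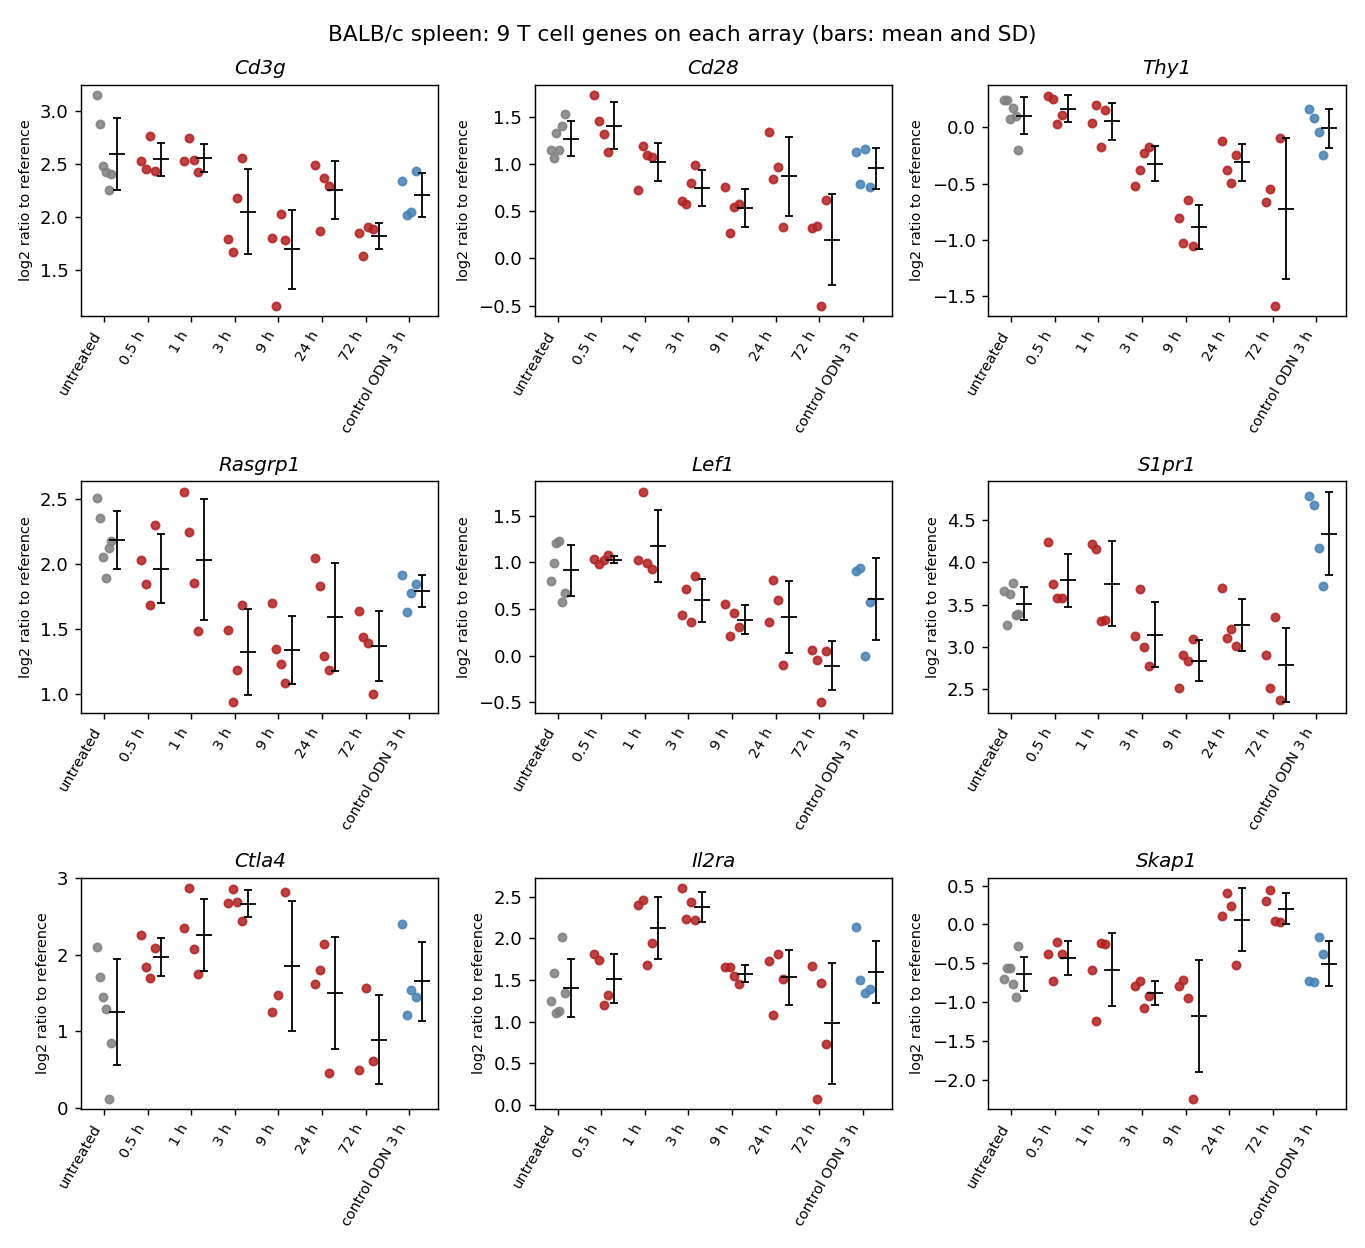
Log2 ratio of spleen over reference for members with calls in the BALB/c time course, by array, with untreated and control ODN arrays beside the 6 times after CpG ODN. Each point is 1 array and bars are the group mean and SD; Cd3g at 9 h reads 1.16 to 2.03, below every untreated array, and Ctla4 at 3 h reads 2.45 to 2.86, above every untreated array.

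Among the signalling genes, Rasgrp1, which encodes the exchange factor that activates RAS after receptor engagement, was the member called lower at 3, 9 and 72 h without overlap at any of them. Untreated arrays lay between 1.89 and 2.51 with a median of 2.15. The arrays read 1.50, 0.94, 1.19 and 1.69 at 3 h, 1.70, 1.35, 1.23 and 1.09 at 9 h, and 1.64, 1.44, 1.40 and 1.00 at 72 h. Rasgrp1 changed by -0.86 ± 0.20 at 3 h (adjusted p = 0.00226, limma), -0.84 ± 0.20 at 9 h (adjusted p = 0.00407) and -0.82 ± 0.20 at 72 h (adjusted p = 0.00736). Within the second array run, the 3 h arrays read 1.19 and 1.69 and the untreated array 2.35. Its other 2 probes changed by -0.45 and -0.56 at 3 h and by -0.51 and -0.63 at 9 h and did not pass the test, and with its probes averaged the 72 h change was -0.53 (adjusted p = 0.0693). The 250 bases before the Rasgrp1 start (chr2:117342878-117343127, minus strand) hold none of the 5 motifs.

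Trat1, a transmembrane adaptor that associates with the receptor complex, was called lower at 9 h. It read 2.42, 0.73, 1.99 and 1.96 against 2.57 to 3.34 in untreated arrays, with no overlap. The change was -1.16 ± 0.33 (adjusted p = 0.0237, limma). Replicate 2 lay far below the other 9 h arrays, and the call was lost without it (adjusted p = 0.177) and without untreated replicate 1 (adjusted p = 0.0559). Its other 2 probes changed by -0.74 and -0.53 and did not pass.

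Skap1, a cytosolic adaptor that links the receptor to integrin adhesion, was the member that moved the other way. It read -0.79, -0.71, -0.95 and -2.24 at 9 h, 0.11, 0.41, 0.24 and -0.52 at 24 h, and 0.30, 0.44, 0.04 and 0.03 at 72 h. Untreated arrays lay between -0.94 and -0.28, so all 72 h arrays exceeded all untreated arrays. From 9 h to 24 h Skap1 rose by 1.23 ± 0.25 (adjusted p = 0.00298, limma), and at 72 h it was 0.84 ± 0.23 above untreated (adjusted p = 0.0181). The 9 h to 24 h call held without 9 h replicate 4 (adjusted p = 0.02), while the 72 h call was lost without 72 h replicate 1 (adjusted p = 0.0533) or replicate 2 (adjusted p = 0.0753). The kinases Zap70, Txk, Fyn and Prkcq and the adaptors Lat and Themis were called against untreated BALB/c spleen at no time. Txk, a kinase of the TEC family, had the highest change of them at 3 h, 0.73 (adjusted p = 0.137). Themis, an adaptor needed for thymic selection, had the lowest at 9 h, -0.79 (adjusted p = 0.126).

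Of the 6 measured naive genes, the main fit called 4 lower at 72 h and none at 3, 9 or 24 h. They were Lef1, Bcl11b and Gata3, transcription factors of T cell development, and S1pr1, the receptor through which T cells leave lymphoid tissue. Lef1 lay between 0.57 and 1.23 in untreated arrays, with a median of 0.90, and read 0.06, -0.05, -0.50 and 0.05 at 72 h. The groups did not overlap, and Lef1 changed by -1.02 ± 0.19 (adjusted p = 0.000709, limma), 2.03-fold. Its other 2 probes changed by -1.38 and -0.90 at 72 h, and both passed the test. At 9 h 1 of these probes changed by -1.10 (adjusted p = 0.00187 over all probes), although the probe that stands for the gene did not pass. With probes averaged Lef1 was called lower at 9 h (-0.64, adjusted p = 0.0221, limma) and 24 h (-0.66, adjusted p = 0.032).

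Bcl11b lay between -0.19 and 0.32 in untreated arrays and read -0.79, -0.90, -0.39 and -0.74 at 72 h, with no overlap and a change of -0.76 ± 0.21 (adjusted p = 0.0192, limma). The call was lost without 72 h replicate 1 (adjusted p = 0.0551) or replicate 2 (adjusted p = 0.0759). With probes averaged Bcl11b was called lower at 9 h too (-0.76, adjusted p = 0.00973, limma). Gata3 lay between -1.77 and -0.90 in untreated arrays and read -2.24, -2.10, -2.52 and -1.44 at 72 h, with replicate 4 inside the untreated range. Gata3 changed by -0.79 ± 0.20 (adjusted p = 0.0117), a call lost without 72 h replicate 3 (adjusted p = 0.0782). With array weights Gata3 was called lower at 3 h (-0.55, adjusted p = 0.0147, limma) and 9 h (-0.56, adjusted p = 0.0285).

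S1pr1 lay between 3.26 and 3.75 in untreated arrays and read 2.91, 2.51, 3.35 and 2.37 at 72 h, with replicate 3 inside the untreated range. It changed by -0.73 ± 0.23 (adjusted p = 0.0364, limma). This call was lost without 72 h replicate 1, 2 or 4 or untreated replicate 1, 3, 4 or 5, with an adjusted p of up to 0.132. At 9 h S1pr1 read 2.51, 2.90, 2.84 and 3.10, below every untreated array, but the change of -0.68 did not pass (adjusted p = 0.07). It passed with array weights (-0.77, adjusted p = 0.00864, limma) and with arrays scaled to the same spread (-0.78, adjusted p = 0.0359). Il7r, the IL-7 receptor chain that sustains naive T cells, had a change of -0.68 at 72 h (adjusted p = 0.349), with arrays from -0.13 to 2.50.

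Satb1, a chromatin organiser of T cells, was the naive gene called at 1 h. It read 2.97, 2.84, 2.37 and 2.28 at 1 h against 0.84 to 2.02 in untreated arrays, with no overlap. The change was 1.09 ± 0.29 (adjusted p = 0.0285, limma), 2.14-fold, while its second probe changed by 0.25 (adjusted p = 0.645 over all probes). With the run as a fixed block the change was 1.15 (adjusted p = 0.0263), and with arrays scaled to the same spread it was 0.75 (adjusted p = 0.207). The call was lost without 1 h replicate 1 or 2 or untreated replicate 3, 4 or 5, with an adjusted p of up to 0.136.

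At 1 h the arrays of the first run stood above those of the second in several members. S1pr1 read 4.21 and 4.15 against 3.30 and 3.32, Prkcq, protein kinase C theta, 2.29 and 2.42 against 1.06 and 0.93, and Icos 3.25 and 3.38 against 2.02 and 2.23. Within the first run alone, with 5 untreated and 2 arrays of 1 h, limma called 12 members higher and 1 lower, where 8.02% of all genes were higher and 3.17% lower. The higher members included Cd8a at 1.62, Satb1 at 1.45, Icos at 1.45, Ctla4 at 1.45 and Cd3d at 1.40, and the lower was Gata3 at -0.93. Over all probes, the median absolute deviation was 0.87 and 0.80 in 1 h replicates 1 and 2. It was 0.61 to 0.68 in the untreated arrays of that run. The part of this spread in the 12 higher calls was not tested. At 0.5 h, whose arrays all lay in the first run, the same comparison within it called no member (0.184% of all genes higher, 0.00658% lower). The second run held 1 untreated array, so the same comparison within it has no test. The median change of the members was 0.62 in the first run and 0.36 over all 1 h arrays.

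Of the regulatory and activated genes, Ctla4 and Il2ra were higher at 3 h. Ctla4, which encodes an inhibitory receptor of regulatory and activated T cells, lay between 0.12 and 2.10 in untreated arrays with a median of 1.37. It read 2.67, 2.86, 2.69 and 2.45 at 3 h. All 3 h arrays lay above all untreated arrays. Ctla4 rose by 1.42 ± 0.34 (adjusted p = 0.00434, limma), 2.67-fold. At 9 h it read 1.25, 1.47 and 2.82 on the 3 arrays with a value, and the gene was not called then or later. Within the second run, the 3 h arrays read 2.69 and 2.45 and the untreated array 1.71.

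Il2ra, which encodes CD25, lay between 1.11 and 2.02 in untreated arrays and read 2.60, 2.23, 2.43 and 2.22 at 3 h and 1.65, 1.66, 1.54 and 1.46 at 9 h. The 3 h arrays lay above all untreated arrays and the 9 h arrays within their range. Il2ra rose by 0.97 ± 0.23 at 3 h (adjusted p = 0.00445, limma), 1.95-fold. Its second probe changed by 0.09, so that the mean of both probes gave 0.53 (adjusted p = 0.0845). Foxp3, the defining factor of regulatory T cells, changed by 0.01 at 3 h and had its highest difference at 1 h, 0.69, which did not pass (adjusted p = 0.104). Icos, a co-stimulatory receptor of activated T cells, was called against untreated BALB/c spleen at no time.

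The promoters of Ctla4 and Il2ra are shown because these members rose together at 3 h. They were taken and marked as for the CD3 genes.
Ctla4 promoter, chr1:60908775-60909024, plus strand: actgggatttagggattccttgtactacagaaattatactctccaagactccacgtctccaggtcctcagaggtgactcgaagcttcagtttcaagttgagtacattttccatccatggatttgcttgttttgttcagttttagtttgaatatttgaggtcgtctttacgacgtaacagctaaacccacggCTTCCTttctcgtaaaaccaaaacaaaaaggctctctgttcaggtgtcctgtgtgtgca
Il2ra promoter, chr2:11642542-11642791, plus strand: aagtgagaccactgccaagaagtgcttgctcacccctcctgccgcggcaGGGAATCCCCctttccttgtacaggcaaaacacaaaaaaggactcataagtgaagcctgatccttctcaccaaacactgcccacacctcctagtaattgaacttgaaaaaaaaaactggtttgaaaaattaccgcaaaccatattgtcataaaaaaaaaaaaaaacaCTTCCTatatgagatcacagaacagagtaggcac
The Ctla4 window holds 1 ETS match. The Il2ra window holds 1 NF-kB match, 201 bases before the start at its first base, and 1 ETS match. Il2ra and Satb1 were the 2 members with an NF-kB match. No match in a window says only that these letters are not there.

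With the array run as a fixed block none of the members called at 3 h or 9 h passed the test. At 3 h Ctla4 changed by 1.43 (adjusted p = 0.182, limma), Il2ra by 1.12 (adjusted p = 0.0988), Rasgrp1 by -0.50 (adjusted p = 0.457) and Cd3g by -0.29 (adjusted p = 0.696). At 9 h Thy1 changed by -0.75 (adjusted p = 0.536), Trat1 by -0.82 (adjusted p = 0.845), Cd28 by -0.40 (adjusted p = 0.884), Rasgrp1 by -0.37 (adjusted p = 0.907) and Cd3g by -0.33 (adjusted p = 0.912). No run held both 9 h and untreated arrays, so this 9 h fit compares them through the 3 h arrays.

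Markers of other spleen cells were set beside these changes. The mean of 8 B cell genes was 2.96 in untreated spleen (2.57 to 3.42), 2.59 at 3 h (2.47 to 2.72), 2.75 at 9 h and 2.53 at 72 h (2.09 to 2.83). No B cell gene was called at 9 h and 2 of 8 were lower at 72 h. The mean of 7 neutrophil genes was 2.32 in untreated spleen (1.79 to 2.72), 3.60 at 1 h (3.18 to 3.95), 3.08 at 3 h (2.93 to 3.20), 3.54 at 9 h (3.12 to 3.83) and 2.71 at 72 h. The arrays of 1, 3 and 9 h all lay above the untreated arrays, and of 9 genes 5 were called higher at 1 h, 4 at 3 h, 5 at 9 h and 1 at 72 h. The mean of 6 monocyte and macrophage genes was 1.00 in untreated spleen (0.84 to 1.15), 1.65 at 0.5 h (1.34 to 1.86), 1.79 at 1 h (1.61 to 1.90), 1.54 at 3 h (1.37 to 1.71), 1.19 at 9 h (0.80 to 1.49), 1.64 at 24 h (1.33 to 1.80) and 1.30 at 72 h (1.14 to 1.38). Of 7 such genes 1 was higher at 0.5 h, 2 at 1 h, 1 at 3 h, 2 at 9 h with 1 lower, 3 at 24 h and 2 at 72 h. The mean of 4 natural killer cell genes was 4.46 in untreated spleen (3.75 to 5.07), 5.44 at 24 h (4.92 to 5.78) and 5.31 at 72 h (4.78 to 5.70), with 2 of 5 genes higher at 24 h and 1 at 3, 9 and 72 h. The mean of 5 erythroid genes was 4.35 in untreated spleen (4.13 to 4.61), 3.57 at 24 h (3.13 to 4.05) and 4.90 at 72 h (4.19 to 5.41), with 2 of 6 genes lower at 24 h and none called at the other times. Exocrine pancreas genes ranged from 0.58 to 5.38 across the untreated arrays by their mean, and 0 of 11 were called against untreated BALB/c spleen by limma at any time. After control ODN at 3 h the neutrophil mean was 3.20 (2.29 to 3.73) and the monocyte and macrophage mean 1.52 (1.10 to 1.81). In that group the B cell mean was 3.34 (2.88 to 3.64), the natural killer cell mean 4.63 and the erythroid mean 4.95. The part of these other cells in the T cell values was not tested.

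The control ODN arrays address whether the 3 h differences depend on the CpG mixture. Against untreated spleen limma called no member after control ODN, with 1.05% of all genes higher and 0.367% lower, and 11 members had an unadjusted p under 0.05. S1pr1 read 4.79, 4.68, 4.17 and 3.72 after control ODN, 3 of 4 arrays above the highest untreated array, a change of 0.83 that did not pass (adjusted p = 0.0538). Between CpG ODN and control ODN at 3 h, 4 members were lower and 1 was higher after CpG ODN, where 10.9% of all genes were lower and 7.4% higher. The members' share of lower calls thus lay close to the background.

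S1pr1 read 3.12, 3.68, 3.00 and 2.78 after CpG ODN, all below the control ODN arrays, and differed by -1.20 ± 0.25 (adjusted p = 0.00089, limma), or by -0.59 (adjusted p = 0.117) with arrays scaled to the same spread. Cd5, which dampens receptor signalling, read 0.66, 0.73, 0.65 and 0.89 after CpG ODN and 1.63, 1.37, 1.78 and 1.34 after control ODN. The groups did not overlap, and the difference was -0.79 ± 0.20 (adjusted p = 0.00528). Zap70, the kinase recruited to the CD3 tails, read 0.58, 0.33, 0.42 and 0.69 after CpG ODN and 1.59, 1.09, 1.60 and 0.73 after control ODN, again without overlap and with a difference of -0.74 ± 0.21 (adjusted p = 0.012). Cd8b1 differed by -0.68 (adjusted p = 0.0292) with overlapping arrays. Il2ra was higher by 0.78 ± 0.26 (adjusted p = 0.0329), against control ODN arrays of 2.14, 1.51, 1.35 and 1.39, all below the CpG arrays. Ctla4 was 1.02 higher and did not pass (adjusted p = 0.0544). Rasgrp1 and Cd3g, the members called lower at 3 h against untreated spleen, were not called against control ODN. The Rasgrp1 difference was -0.47 (adjusted p = 0.125, limma). Cd5, Zap70 and S1pr1 at 3 h were not called against untreated spleen, and the control ODN arrays formed a separate array run from the CpG arrays of 3 h.

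Without control ODN replicate 3, which gave the highest Cd8b1 and Cd5 values of that group, the Cd8b1 call (adjusted p = 0.164), the Zap70 call (0.0642) and the Il2ra call (0.11) were lost by limma. Cd8b1 was also lost without control ODN replicate 1 or CpG replicate 1 or 4, Zap70 without control ODN replicate 1, and Il2ra without control ODN replicate 2 or 4 or CpG replicate 1 or 3. The Il2ra call was lost as well with array weights (0.70, adjusted p = 0.101) and with probes averaged (0.52, adjusted p = 0.0877), and with probes averaged Zap70 was at -0.54 (adjusted p = 0.05), which did not pass. Between CpG and control ODN, 3 of 8 B cell marker genes were lower, 2 of 9 neutrophil genes were higher and 1 lower, 1 of 7 monocyte and macrophage genes was higher and 2 lower, and 1 of 5 natural killer cell genes was higher. The part of these cells in the difference was not tested.

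In C57BL/6 control mice 3 members changed at 3 h after CpG ODN, 2 lower and 1 higher, where 2.75% of all genes were lower and 4.95% higher. Rasgrp1 read 1.92, 2.15, 1.84 and 2.35 in untreated arrays and 0.91, 1.24, 1.79 and 0.84 after CpG ODN. The groups did not overlap, and Rasgrp1 fell by 0.87 on the log2 scale (SE 0.22, adjusted p = 0.019, limma). Ctla4 read 2.49, 2.00, 3.09 and 2.67 untreated and 3.40, 3.51, 3.17 and 3.79 after CpG ODN, again without overlap, and rose by 0.90 ± 0.27 (adjusted p = 0.0468). Cd5 read 2.57, 1.57, 1.88 and 1.93 untreated and 1.05, 1.35, 1.60 and 0.60 after CpG ODN, with a change of -0.84 ± 0.25 (adjusted p = 0.0467) and slight overlap. Il2ra changed by 0.98, which did not pass (adjusted p = 0.0771). With arrays scaled to the same spread Rasgrp1 (-0.75, adjusted p = 0.0553, limma) and Cd5 (-0.72, adjusted p = 0.0897) did not pass. The Rasgrp1 and Ctla4 directions are those seen in BALB/c mice, in arrays that share no sample with them. The mean of 7 neutrophil genes was 3.05 in untreated C57BL/6 control spleen (2.76 to 3.27) and 4.13 after CpG ODN (3.86 to 4.66), without overlap and with 5 of 9 genes called higher. The mean of 8 B cell genes was 3.23 untreated (3.05 to 3.38) and 2.97 after CpG ODN (2.82 to 3.13), with no gene called, and of 7 monocyte and macrophage genes 1 was higher and 2 lower. Their part in the changes of the members was not tested.

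None of the 3 C57BL/6 calls held without every single array. Rasgrp1 was lost without CpG replicate 1 or 4 or untreated replicate 2 or 4 (adjusted p up to 0.0652, limma), Cd5 without CpG replicate 1, 2 or 4 or untreated replicate 1, 3 or 4 (up to 0.153), and Ctla4 without any array but untreated replicate 3 (up to 0.147). With the array run as a fixed block Rasgrp1 changed by -0.88 (adjusted p = 0.0553), Ctla4 by 0.81 (adjusted p = 0.069) and Cd5 by -0.53 (adjusted p = 0.121).

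In TNF-KO mice limma called no member at 3 h after CpG ODN, with 3.45% of all genes higher and 0.321% lower, and 2 members had an unadjusted p under 0.05. Rasgrp1 read 1.91, 1.16, 2.00 and 1.75 untreated and 1.09, 1.42, 1.24 and 1.15 after CpG ODN, a change of -0.48 ± 0.22 (adjusted p = 0.33). Untreated replicate 2 lay among the CpG arrays. Ctla4 read 1.71, 2.77, 3.18 and 2.68 untreated and 2.66, 3.13, 2.86 and 2.94 after CpG ODN, a change of 0.31 ± 0.27 (adjusted p = 0.691) with overlap. The difference between the TNF-KO and control responses was 0.39 ± 0.31 for Rasgrp1 (adjusted p = 0.823) and -0.59 ± 0.38 for Ctla4 (adjusted p = 0.743), so neither difference passed the test.

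No member was called by limma between TNF-KO and control mice, either untreated (0.0803% of all genes higher, 0.515% lower, 1 member at an unadjusted p under 0.05) or after CpG ODN (0.301% higher, 0.0669% lower, 4 members). The test of the difference between the 2 responses called no member either, with 0.0134% of all genes called in each direction and 0 members at an unadjusted p under 0.05. The 27 members with values on every array had group means of 1.80 in untreated control and 1.81 in untreated TNF-KO spleen, and 1.62 in both genotypes after CpG ODN. The test of the difference between the C57BL/6 control and BALB/c responses at 3 h also called no member, where 0.0131% of all genes were higher and 0.44% lower and 1 member had an unadjusted p under 0.05. For Rasgrp1 that difference was -0.01 ± 0.29, and for Il2ra 0.01 ± 0.40.

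**Figure D4:**
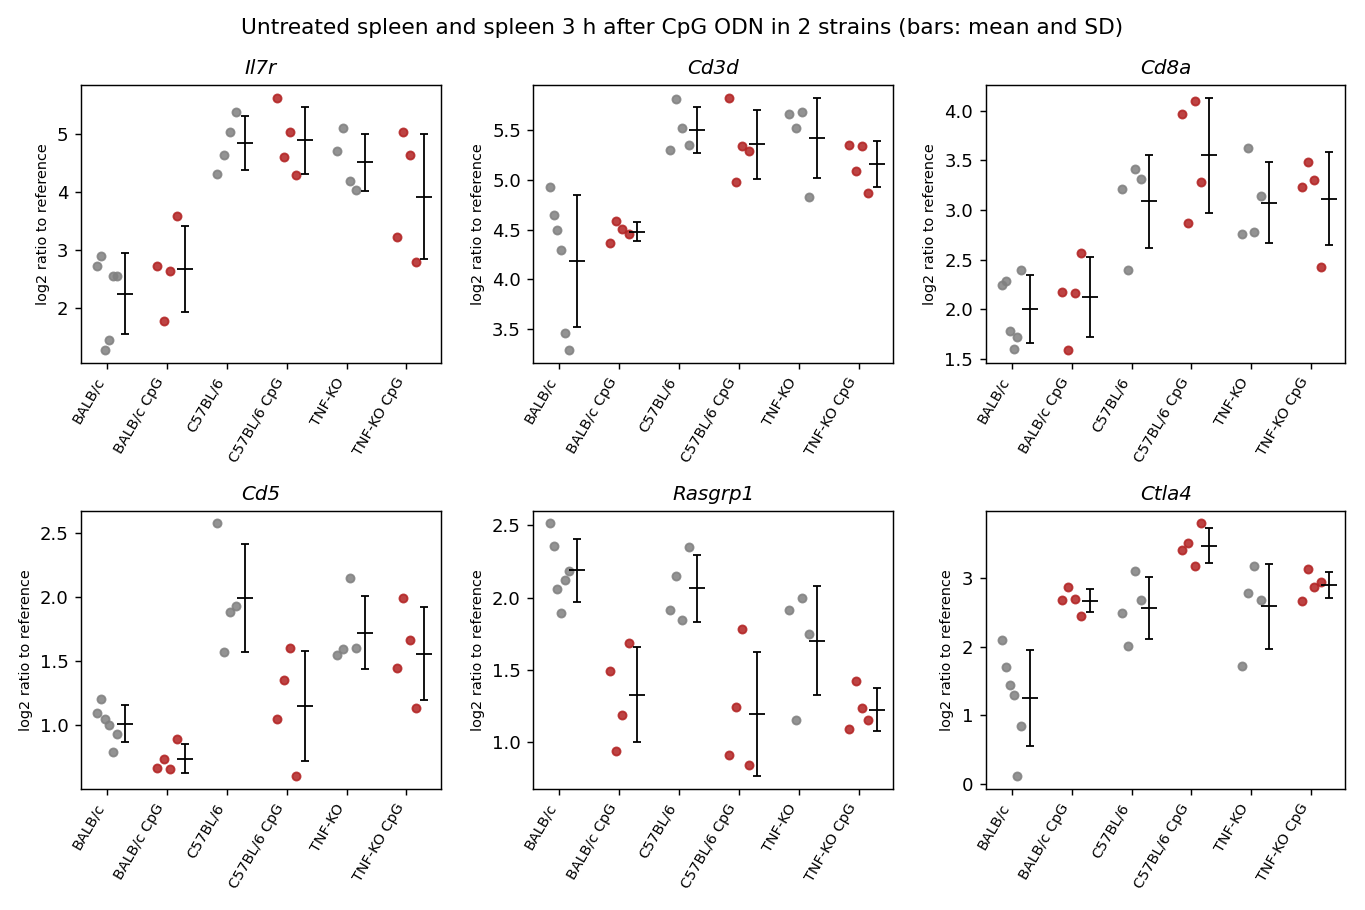
Log2 ratio of spleen over reference of Il7r, Cd3d, Cd8a, Cd5, Rasgrp1 and Ctla4 in untreated spleen (grey) and 3 h after CpG ODN (red) in BALB/c, C57BL/6 control and TNF-KO mice. Each point is 1 array and the bars are mean and SD; Il7r reads 4.31 to 5.37 in untreated C57BL/6 control spleen and 1.28 to 2.89 in untreated BALB/c spleen.

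Untreated C57BL/6 control spleen had higher values of many T cell genes than untreated BALB/c spleen. Of 32 members, 12 were higher and none lower, where 8.47% of all genes were higher and 6.06% lower, and the median difference was 0.58 over the members and 0.04 over all genes. Strain and array run cannot be told apart here, since no run held both strains. The higher members were 6 receptor genes (Cd3d, Cd4, Cd8a, Cd5, Cd6 and Thy1), the kinase Zap70 and the adaptor Lat, Satb1 and Il7r, and Ctla4 and Icos.

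Il7r had the highest difference among the members. It lay between 1.28 and 2.89 in untreated BALB/c arrays, with a median of 2.56, and read 4.31, 4.64, 5.03 and 5.37 in untreated C57BL/6 control arrays. The groups were far apart. The difference was 2.59 ± 0.46 (adjusted p = 7.51e-05, limma), 6.01-fold. The second Il7r probe differed by 0.60 (adjusted p = 0.229 over all probes), so the size rests on 1 probe. TNF-KO arrays, from mice of the same strain, read 4.70, 5.11, 4.19 and 4.03 untreated. After CpG ODN Il7r read 5.62, 4.60, 5.02 and 4.30 in C57BL/6 control arrays and 2.73, 1.77, 2.63 and 3.59 in BALB/c arrays, a difference of 2.20 ± 0.50 (adjusted p = 0.00214, limma). With probes averaged this difference was 1.05 and did not pass (adjusted p = 0.0592).

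Cd3d read 5.30, 5.82, 5.52 and 5.35 in untreated C57BL/6 control arrays against 3.29 to 4.93 in BALB/c arrays, a difference of 1.31 ± 0.28 without overlap (adjusted p = 0.00104, limma). Cd5 read 2.57, 1.57, 1.88 and 1.93 against 0.79 to 1.20, a difference of 0.98 without overlap (adjusted p = 0.000558). Cd6 read 2.34, 2.42, 2.76 and 2.54 against 1.47 to 2.24, a difference of 0.75 (adjusted p = 0.0034). Every C57BL/6 control array exceeded every BALB/c array in these 3 genes. Cd8a differed by 1.08 (adjusted p = 0.0153), with arrays of 3.21, 2.40, 3.42 and 3.32 against 1.60 to 2.40, while its second probe differed by 0.46 (adjusted p = 0.331 over all probes). Thy1 differed by 0.74 (adjusted p = 0.0026) on the probe that stands for it and by -0.14 on the other. Cd3e, Cd3g and Cd28 were not called between the strains.

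Of the other 6, Ctla4 differed by 1.31 (adjusted p = 0.00374, limma), Satb1 by 0.98 (adjusted p = 0.0482), Icos by 0.91 (adjusted p = 0.0438), Zap70 by 0.81 (adjusted p = 0.00572), Cd4 by 0.81 (adjusted p = 0.0177) and Lat by 0.61 (adjusted p = 0.0347). Of these, Lat alone had groups that did not overlap. With arrays scaled to the same spread 5 of the 12 were called higher, and Cd3d (0.59, adjusted p = 0.19), Cd4, Cd8a, Cd6, Lat, Satb1 and Icos were not. Cd27, at -0.67 (adjusted p = 0.103) without that scaling, was then called lower (-1.03, adjusted p = 0.00191). With the run as a random block Satb1 (0.96, adjusted p = 0.073) and Icos (0.91, adjusted p = 0.0599) did not pass. Single control arrays decided Cd4 (replicate 2 or 3, adjusted p up to 0.0965), Cd8a (replicate 3 or 4, up to 0.0667) and Zap70 (replicate 1, 0.0648). Lat was lost without control replicate 1, 3 or 4 or BALB/c replicate 1, 2 or 5 (up to 0.0947), Satb1 without control replicate 1, 3 or 4 or BALB/c replicate 3, 4 or 5 (up to 0.215), and Icos without control replicate 1, 3 or 4 or BALB/c replicate 3, 4, 5 or 6 (up to 0.132).

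A comparison of untreated TNF-KO with untreated BALB/c spleen, added after the data were seen, also called 12 members higher and none lower, where 12.9% of all genes were higher and 9.25% lower. It shares its BALB/c arrays with the comparison above. The lists share 10 genes, Cd3d, Cd8a, Cd5, Cd6, Thy1, Zap70, Lat, Il7r, Ctla4 and Icos, which is 10 of the 12 in either list. In the TNF-KO comparison Zap70 did not pass with the pancreas gene mean as covariate (0.57, adjusted p = 0.0527, limma). Nor did Prkcq (0.72, adjusted p = 0.0731). Thy1 did not pass with probes averaged (0.26, adjusted p = 0.147). Trat1 did not with arrays scaled to the same spread (0.74, adjusted p = 0.144). So scaled, Cd27 (-0.76), Cd3g (-0.75) and Rasgrp1 (-0.66) were called lower. Array weights added Cd2, Fyn and Lef1 as higher, and averaging probes Cd28 and Cd8b1. Leaving out 1 array lost Prkcq in 7 of 10 fits, Zap70 in 6 and Trat1 in 3. After CpG ODN, 5 members were higher in C57BL/6 control than in BALB/c spleen (6.97% of all genes higher, 5.84% lower), namely Cd4, Cd8a, Zap70, Prkcq and Il7r. Without BALB/c CpG replicate 2 or control CpG replicate 1, Cd4, Zap70 and Prkcq did not pass by limma (adjusted p up to 0.203). Cd4 was also lost without BALB/c CpG replicate 3 and with arrays scaled to the same spread (0.69, adjusted p = 0.135), Zap70 without BALB/c CpG replicate 3 or control CpG replicate 3, and Prkcq without control CpG replicate 4. Among markers of other cells in untreated spleen, 4 of 9 neutrophil genes were higher and 1 lower in C57BL/6 control mice, 2 of 5 natural killer cell genes were higher and 1 lower, and no B cell gene of 8 was called. Their part in the T cell values was not tested.

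Other genes of the same pathway were counted from lists written with earlier results of these data known. Of 31 measured genes of receptor signalling beside the members, 4 were higher and none lower at 1 h, 3 higher and none lower at 3 h, 1 higher and 1 lower at 9 h, 2 higher at 24 h and 1 lower at 72 h. Of all genes 3.01% were higher and 0.288% lower at 1 h, 6.82% and 3.14% at 3 h, 4.19% and 2.77% at 9 h, 6.83% and 1.62% at 24 h, and 6.43% and 4.15% at 72 h. The higher calls among the signalling genes at 3, 9 and 24 h, 9.68%, 3.23% and 6.45% of them, lay near these shares. At 1 h Sh2d2a, an adaptor that binds LCK, rose by 1.02 ± 0.21 (adjusted p = 0.00287, limma), and Lcp2, the adaptor SLP-76 that works beside LAT, by 0.89 ± 0.25 (adjusted p = 0.0359). Pag1, the membrane adaptor that recruits CSK, rose by 0.71 and Slamf1, an adhesion receptor, by 1.17. At 3 h the inhibitory genes Ptpn22, a phosphatase that restrains LCK, Sla, an adaptor that lowers receptor levels, and Cblb, a ubiquitin ligase that limits activation, rose by 1.39 ± 0.31 (adjusted p = 0.00197), 0.95 ± 0.22 (adjusted p = 0.00352) and 0.67 ± 0.18 (adjusted p = 0.0105). Sla and Ptpn22 were higher at 24 h too, by 0.83 and 0.97. Nfatc3, a transcription factor driven by calcium, fell by 0.59 at 9 h, Vav1, an exchange factor for RAC, rose by 0.52, and Malt1, a protease of the NF-kB branch, fell by 0.59 at 72 h.

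Of 23 measured lineage and homing genes, 1 was higher at 1 h, 1 higher and 1 lower at 3 h, 3 lower at 9 h, 1 lower at 24 h, and 4 lower and 1 higher at 72 h. Beside the lower calls at 9 h and 72 h, 13.0% and 17.4% of these genes, stand 2.77% and 4.15% of all genes. Ccr7, the receptor that guides naive T cells and dendritic cells into lymphoid tissue, rose at 1 h by 1.05 ± 0.29 (adjusted p = 0.0305, limma) and at 3 h by 1.15 ± 0.29 (adjusted p = 0.00544). Itgae, the integrin chain CD103, fell at 3 h by 0.84 ± 0.24 (adjusted p = 0.0189) and changed at 9 h by -1.25 ± 0.24 (adjusted p = 0.000568). Igfbp4 and Dapl1, both high in naive T cells, changed at 9 h by -1.03 ± 0.20 and -1.11 ± 0.31 (adjusted p = 0.000521 and 0.023). At 72 h Klf2, the factor that drives S1pr1, changed by -1.09 ± 0.27 (adjusted p = 0.00893) and Id3, an inhibitor of E proteins, by -0.74 ± 0.20 (adjusted p = 0.0155), while Cxcr6, a receptor of tissue-homing T cells, rose by 1.06 ± 0.25 (adjusted p = 0.00575). Igfbp4 at -0.67 and Il6ra, the IL-6 receptor chain, at -0.46 also passed at 72 h.

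Of 23 measured activation genes, 6 were higher at 1 h, 7 higher and 1 lower at 3 h, 5 higher and 1 lower at 9 h, 4 higher and 2 lower at 24 h, and 3 of each at 72 h. The higher calls were 26.1% of these genes at 1 h, 30.4% at 3 h, 21.7% at 9 h, 17.4% at 24 h and 13.0% at 72 h, beside 3.01%, 6.82%, 4.19%, 6.83% and 6.43% of all genes. Cd69, an early activation receptor that opposes S1PR1 at the surface, rose by 2.09 ± 0.29 at 1 h (adjusted p = 1.08e-05, limma) and 3.11 ± 0.29 at 3 h (adjusted p = 7.55e-10). Socs3, an inhibitor of cytokine signalling, rose by 4.09 ± 0.24 at 1 h (adjusted p = 3.71e-14). After control ODN the Socs3 change was 0.92 ± 0.24 (adjusted p = 0.0476), the 1 activation gene called there. Havcr2, the inhibitory receptor TIM-3, changed by -1.07 at 3 h, -1.26 at 9 h and -1.18 at 24 h, each past the test. At 72 h Lag3, another inhibitory receptor, was higher by 1.36 ± 0.27 (adjusted p = 0.00136), and Tnfrsf18 and Tnfrsf4, co-stimulatory receptors of regulatory and activated T cells, changed by -0.65 and -0.79. Many activation genes are also expressed by B cells and myeloid cells, so in whole spleen these values are not those of T cells alone.

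In C57BL/6 control mice 7 of the activation genes were higher and 1 lower at 3 h after CpG ODN, and in TNF-KO mice 4 were higher, beside 4.95% of all genes higher and 2.75% lower in control mice and 3.45% higher in TNF-KO mice. Socs3 rose by 3.01 ± 0.24 in control mice (adjusted p = 6.56e-07, limma) and 3.15 ± 0.26 in TNF-KO mice (adjusted p = 7.46e-07). Batf, a factor of activated lymphocytes, rose by 1.90 ± 0.25 and 1.12 ± 0.25 (adjusted p = 9.51e-05 and 0.0125). Of lineage and homing genes, Dapl1 (-1.14), Il6ra (-0.82) and Cxcr3 (-0.81), a chemokine receptor of effector T cells, passed in control mice. Between the untreated strains 8 of the signalling genes, 7 of the lineage and homing genes and 8 of the activation genes were higher in C57BL/6 control than in BALB/c spleen and none lower, beside 8.47% of all genes higher and 6.06% lower, among them Nsg2 at 1.97 ± 0.22 (adjusted p = 3.79e-09), Cxcr3 at 1.46 ± 0.22 (adjusted p = 3.85e-06) and Sh2d2a at 1.20 ± 0.21 (adjusted p = 4.99e-05).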

How the data were processed

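Spleen RNA (Cy5) and universal mouse reference RNA (Cy3) were hybridised together, per the labels. The deposited values are log2 ratios which the authors, per the series text, corrected for background, cleared of flagged spots and of spots with both signals low, and normalised by lowess. The direction, spleen over reference, follows the dyes in the labels. Array medians as deposited lay between -0.0178 and 0.0197, and each array was centred on its median. Probes were named through the platform annotation (26926 with 1 symbol, 203 with several and 9478 with none, of 36607; 5857 held no value). A gene was represented by its probe with the most values and kept if over 70% of the arrays of a fit had a value; missing values stayed missing. limma 3.58.1 (R 4.3.3) fitted group means over the 34 BALB/c arrays, the 16 C57BL/6 arrays and, for strain contrasts, all 50 arrays, with Benjamini-Hochberg adjustment over all genes. The steps were tested on simulated data. No array pair correlated above 0.976, so no array was taken for a copy of another.

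The members and all lists were chosen with earlier results of these data known. Every member is named; of the other lists, genes with an adjusted p under 0.05 against untreated, at most 4 per list and comparison by smallest p. Alternatives were array runs as a block, replicate block, array weights, scaling, probe averaging, complete probes, a pancreas covariate and leaving out each array. Promoters came from RefSeq (GRCm38.p6); 25 of 34 members matched.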

Additional observations from a re-analysis of the deposited data

Results flagged for a closer look

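In the check for single arrays far from the rest of a group of 4 to 10 arrays, 3 values stood out, 1 of 60 group means and 2 of 98 sets of member values; chance alone marks about 1 in 20 groups. The mean of the naive genes was 1.42 in C57BL/6 TNF-KO untreated replicate 4, where the next array was 1.93. Skap1 was -2.24 in BALB/c 9 h replicate 4, where the next array was -0.95. Cd5 was 2.14 in C57BL/6 TNF-KO untreated replicate 3, where the next array was 1.60. Without that array Cd5 was no longer called between untreated TNF-KO and BALB/c spleen (adjusted p = 0.0687, limma).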

How the results depend on the processing

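Of 64 calls of members, 28 held under every setting that could be fitted for them other than leaving out an array. Of the 64, 32 held without any 1 array, and 0 reversed. The run as a fixed block could not be fitted for comparisons with 72 h or control ODN arrays or between strains, so those calls never met that check. Among the calls that did, Satb1 at 1 h and Skap1 from 9 h to 24 h passed and the others did not. Except for the first run alone, no share of all genes called was counted under any alternative setting. A moved count is therefore not a result about the members in particular. Counts of members called moved as follows. With array weights, the count was 11 at 3 h (from 4), 8 at 9 h (from 5), 1 at 24 h (from 0), 6 for control ODN (from 0), 11 for CpG against control ODN (from 5), 9 from 1 h to 3 h (from 3), 1 from 3 h to 9 h (from 0), 7 from 24 h to 72 h (from 1) and 11 between the strains after CpG ODN (from 5). With arrays scaled to the same spread, it was 0 at 1 h (from 1), 3 at 24 h, 3 from 3 h to 9 h, 0 from 24 h to 72 h and 6 between the untreated strains (5 higher and 1 lower, from 12 higher). With a gene's probes averaged, it was 0 at 1 h, 1 at 24 h, 5 from 1 h to 3 h, 3 for CpG against control ODN and 0 from 24 h to 72 h. With probes measured on every array, it was 1 at 24 h, 1 for control ODN and 3 between the strains after CpG ODN. The pancreas gene mean as covariate gave 2 at 24 h. With the array run as a fixed block, it was 0 at 3 h, 0 at 9 h, 0 from 1 h to 3 h and 0 in C57BL/6 control mice (from 3); the first run alone gave 13 at 1 h. Of the calls against untreated BALB/c spleen, Cd3g at 3 h did not pass with the run as a random block (adjusted p = 0.0516, limma) or with the pancreas covariate (adjusted p = 0.0517), and Rasgrp1 at 72 h did not pass with probes averaged (adjusted p = 0.0693). Beyond the fewer arrays or probes some settings use, the cause was not tested.

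Same-numbered arrays were slightly more alike than others, and the main fits did not model a pairing. The median correlation of their deviations from group means was 0.049 in BALB/c mice, against -0.031 for other pairs. In C57BL/6 mice it was 0.096 against -0.048. Of the same-numbered pairs, 43 of 112 in BALB/c and 12 of 24 in C57BL/6 mice correlated above 0.1. In that order, 13 of 34 and 7 of 16 arrays correlated best with their own number. With the replicate block, 2 members were called at 1 h, 4 at 24 h and 1 from 3 h to 9 h; 14 at 72 h, 7 at 9 h, 4 at 3 h and 3 in C57BL/6 control mice stayed within 1.5 times. Ctla4 at 3 h (1.03, adjusted p = 0.058, limma) and Cd28 at 9 h (-0.64, adjusted p = 0.0662) did not pass in that fit. Leaving out each array gave 0 to 2 members at 1 h, 3 to 4 at 3 h, 4 to 6 at 9 h, 0 to 4 at 24 h, 9 to 12 at 72 h, 0 to 6 for control ODN, 2 to 9 for CpG against control ODN, 0 to 4 from 1 h to 3 h, 1 to 3 from 9 h to 24 h, 0 to 3 from 24 h to 72 h, 0 to 2 in C57BL/6 control mice, 8 to 13 between the untreated strains, 9 to 13 between TNF-KO and BALB/c, and 2 to 9 between the strains after CpG ODN. The number of arrays limits the precision.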
